A study of Mus musculus with 54 samples.

Results

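RNA levels in the small intestine of C57B6 mice, a common inbred laboratory strain, were compared between the first 8 h after irradiation and no irradiation. The irradiated group held 8 libraries, 1 for each hour from 1 to 8 h after 10 Gy of gamma radiation, and it was set against a single library from an untreated small intestine at 0 h. Genes entered the comparison when their mean over these 9 libraries was at least 1 FPKM (fragments mapped to a transcript, per kilobase of its length and relative to all mapped fragments of the library), which left 11387 of the 13611 genes in the deposited table. These 9 libraries are part of a series of 54, which asked how the activity of the transcription factor p53 differs between tissues after radiation. The other libraries used here came from large intestine, spleen and thymus of the same strain under the same dose and hours, and a 24 h library of each tissue. The labels give no animal number, age or sex. Whether each hour was a separate mouse is not stated, so the p-values below measure the spread between libraries. Every tissue piece was whole organ tissue, in which fewer cells of a type and less RNA per cell cannot be told apart. Time of day and handling cannot be told apart from radiation, because 0 h is 1 library.

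Gamma rays break DNA, and the kinases that sense the breaks stabilise p53, which then switches on genes that halt the cell cycle, trigger apoptosis, aid repair and, through Mdm2, remove p53 again. In the small intestine, the dividing stem and progenitor cells at the base of the crypts are known for dying within hours of such a dose. The nondividing enterocytes of the villi, which make most of the tissue's RNA, are known to survive it.

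The libraries carried the RNA of small intestine. The 27 absorptive enterocyte markers summed to 133430.0 to 167673 FPKM in the irradiated libraries, against 157940.0 FPKM at 0 h. Fabp2, the intestinal fatty acid binding protein, had 16834 to 26961 FPKM in irradiated libraries, against 22564 FPKM at 0 h. Sis, the brush border sucrase, had 2424 to 3317 FPKM in irradiated libraries, against 2697 FPKM at 0 h. Correlations of log2 values between pairs of the 9 libraries were 0.971 to 0.985. The library at 7 h stood apart in some noncoding RNAs. Rn45s, the ribosomal RNA precursor, had 1907, 693, 905, 501, 335, 159, 16620.2 and 368 FPKM at 1 to 8 h, against 172 FPKM at 0 h. Snord22, a small nucleolar RNA, had 2139.5 FPKM at 7 h, against 0 at 0 h. In each library 22 to 70 genes were listed near 0, meaning under 0.05 FPKM where the median of the other small intestine libraries was at least 1 FPKM. Such a listing can be a failed estimate, so fold changes that depend on one are given apart from the rest.

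Across the 11387 genes, 34 were higher in the irradiated libraries at an adjusted p under 0.05 and 2 were lower. That is 0.299% of genes higher and 0.0176% lower. The test was limma on log2(FPKM + 1) with Benjamini-Hochberg adjustment over all genes, and fold changes (log2FC, mean of the 8 irradiated libraries minus 0 h, ± standard error) are on that scale, which understates the change of low genes. It fitted all 40 tissue libraries, with a mean for each tissue and window of hours. Each tissue had a single library at 0 h and at 24 h, and these add nothing to the spread. The spread comes from the irradiated libraries at 1 to 8 h of all tissues, between different hours of a window. No unirradiated library informs it, and the test assumes that the single 0 h library varies like those irradiated libraries. At an unadjusted p under 0.05, 745 genes (6.54%) passed. Of the 34 higher genes, 13 belonged to the lists of p53 targets. These lists held 63 genes, of which 59 were in the table and 57 were tested, and no tested target was lower. The median log2FC of the 57 was 0.58, against -0.02 over all genes, and 45 of them were above 0. All 8 irradiated libraries were above 0 h for 31 of the 57, against 11% of all genes tested. All 8 were below 0 h for Ccng2 and Tap1, against 13.1% of all genes tested.

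**Figure D1:**
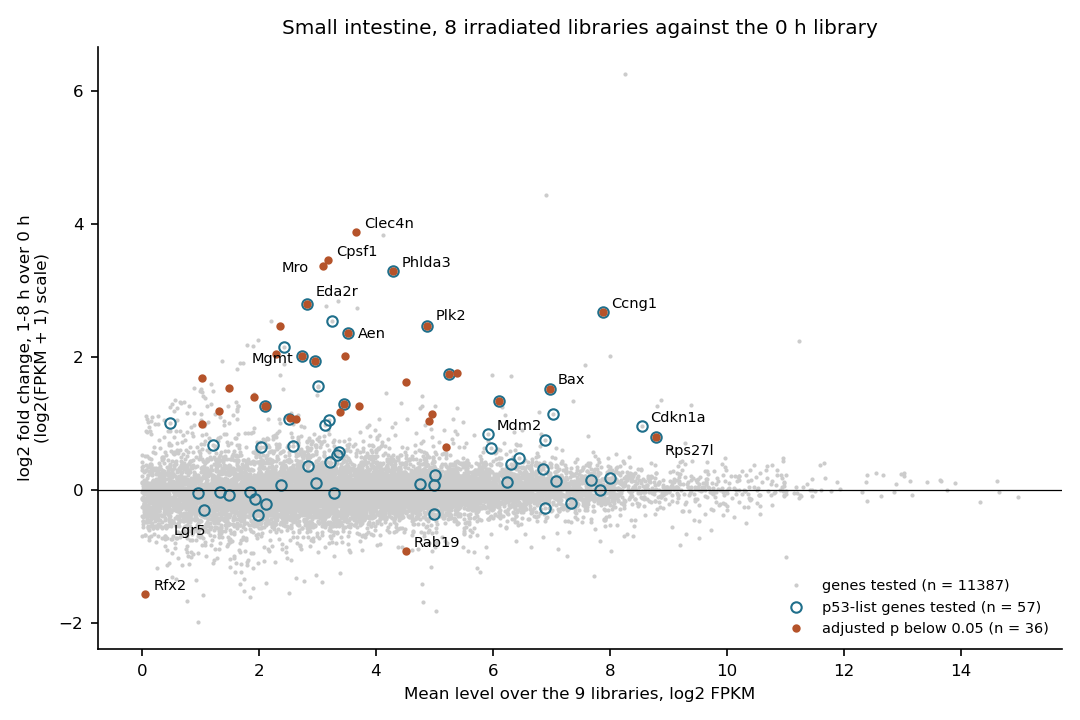
Log2FC of each gene (vertical axis) against the log2 of its mean FPKM over the 9 small intestine libraries (horizontal axis). Log2FC is the irradiated mean of 1 to 8 h (n = 8) minus 0 h (n = 1). Grey points are the 11387 tested genes and open circles are the 57 tested p53 targets. Filled coloured points are all genes that passed the adjusted test, p53 targets or not, 34 above 0 and 2 below.

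Sequences upstream of these genes are shown because p53 binds a defined element in DNA, made of a pair of half-sites of 10 bases. Windows of 300 bases around RefSeq transcription starts (250 before and 50 after, mouse build GRCm38.p6) were searched for the p53 consensus element with at most 3 mismatches, its core bases intact and a spacer of 0 or 1 base. The element is its own reverse complement, so both strands were covered. It was found for 5 of the 12 higher p53 targets that had a window, in 6 of their 17 windows (35.3%). Over all tested p53 targets 13 of 63 windows held it (20.6%), and over all promoter windows of the genome 928 of 32851 (2.82%). The lists were compiled from known p53 targets, so this share describes the lists. The 5 matches are in capitals below, read 5′ to 3′ on the strand of the gene, with the 250 bases before the start for 4 genes and 30 bases around the match for Aen.
Ccng1: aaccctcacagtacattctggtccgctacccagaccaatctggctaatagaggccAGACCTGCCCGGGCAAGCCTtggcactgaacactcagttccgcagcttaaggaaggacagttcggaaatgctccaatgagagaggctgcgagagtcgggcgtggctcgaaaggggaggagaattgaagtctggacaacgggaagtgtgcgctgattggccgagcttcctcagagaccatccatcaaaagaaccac
Bax: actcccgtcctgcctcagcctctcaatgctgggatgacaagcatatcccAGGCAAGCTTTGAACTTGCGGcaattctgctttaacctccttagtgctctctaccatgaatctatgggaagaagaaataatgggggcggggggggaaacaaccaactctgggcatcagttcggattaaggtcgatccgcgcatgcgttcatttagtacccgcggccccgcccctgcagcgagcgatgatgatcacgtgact
Bbc3: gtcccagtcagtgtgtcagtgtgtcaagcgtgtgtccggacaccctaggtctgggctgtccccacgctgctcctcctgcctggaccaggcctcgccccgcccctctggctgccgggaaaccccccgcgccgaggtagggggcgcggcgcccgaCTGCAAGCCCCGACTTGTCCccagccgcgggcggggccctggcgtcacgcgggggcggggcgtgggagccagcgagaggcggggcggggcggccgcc
Rps27l: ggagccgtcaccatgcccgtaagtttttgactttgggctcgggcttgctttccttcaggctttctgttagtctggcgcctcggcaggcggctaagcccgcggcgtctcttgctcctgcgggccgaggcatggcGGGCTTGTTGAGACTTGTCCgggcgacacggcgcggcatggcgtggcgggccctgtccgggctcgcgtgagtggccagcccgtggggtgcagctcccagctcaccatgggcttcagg
Aen: aagccGGGCTTGTCCGGGCAAGGAGcttcc
The Ccng1 window lies at chr11:40755287-40755536 on the minus strand and its match, with 1 mismatch, spans positions -195 to -176 from the start. The Bax window lies at chr7:45466899-45467148 on the minus strand, and its match, with 2 mismatches and a spacer of 1 base, spans -201 to -181. The Bbc3 window lies at chr7:16309333-16309582 on the plus strand, and its match, with 3 mismatches, spans -97 to -78. For Rps27l the window at chr9:66946163-66946412 on the plus strand holds a match with 1 mismatch at -117 to -98. The Aen stretch, chr7:78895932-78895961 on the plus strand, holds a match with 3 mismatches at 10 to 29 bases after the start. A match of letters is not a measured binding site.

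Among the p53 targets that act in cell cycle arrest and feedback, 5 of 19 tested genes rose (Ccng1, Plk2, Phlda3, Sesn2 and Trp53inp1). Over all genes 0.299% were higher. The list median log2FC was 0.98. Ccng1 (chr11:40748552-40755309), cyclin G1, which recruits a phosphatase to Mdm2, had 104, 194, 279, 262, 340.3, 320.5, 292 and 291 FPKM at 1 to 8 h, against 37.6 FPKM at 0 h. Its irradiated libraries were lowest at 1 h and highest at 5 h, all of them above 0 h, with a mean of 260.3 ± 76.7 FPKM (SD, n = 8). Its log2FC was 2.68 ± 0.22 (adjusted p = 2.04e-07). Phlda3 (chr1:135766085-135769134), an inhibitor of the survival kinase Akt, had 19.6, 25.7, 30.3, 21.1, 26.7, 21.5, 9.95 and 20.1 FPKM at 1 to 8 h, against 1.23 FPKM at 0 h. It was near its later level by 1 h, and the lowest irradiated library, at 7 h, was also the one rich in Rn45s, whose part in that value was not tested. Its mean was 21.9 ± 6.08 FPKM (SD, n = 8), which is 17.8 times the 0 h value, with a log2FC of 3.30 ± 0.33 (adjusted p = 3.1e-06).

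Plk2, a polo-like kinase, had 39.2, 35.7, 35.1, 24.9, 31.8, 30.8, 33.7 and 27.8 FPKM at 1 to 8 h, against 5 FPKM at 0 h. It was highest at 1 h, and its irradiated libraries varied little (log2FC 2.46 ± 0.30, adjusted p = 4.19e-05). Trp53inp1, a p53-induced nuclear protein that takes part in arrest, apoptosis and autophagy, had 29.4, 58.3, 53.7, 39.96, 39.2, 41.3, 35.6 and 33.7 FPKM at 1 to 8 h, against 11.3 FPKM at 0 h. Its highest values were at 2 and 3 h (log2FC 1.75 ± 0.24, adjusted p = 0.000297). Sesn2, a sestrin that restrains the growth kinase complex mTORC1, had 12.6, 15.2, 14, 11.6, 11, 9.24, 9.77 and 10.8 FPKM at 1 to 8 h, against 4.13 FPKM at 0 h. It too was highest at 2 h (log2FC 1.30 ± 0.24, adjusted p = 0.0113). No irradiated library of these genes overlapped 0 h. The calls of Trp53inp1 and Sesn2 depended on the model. The adjusted p of Trp53inp1 missed the threshold when the small intestine was fitted alone, and that of Sesn2 did when 1 mean was fitted to 1 to 8 h.

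**Figure D2:**
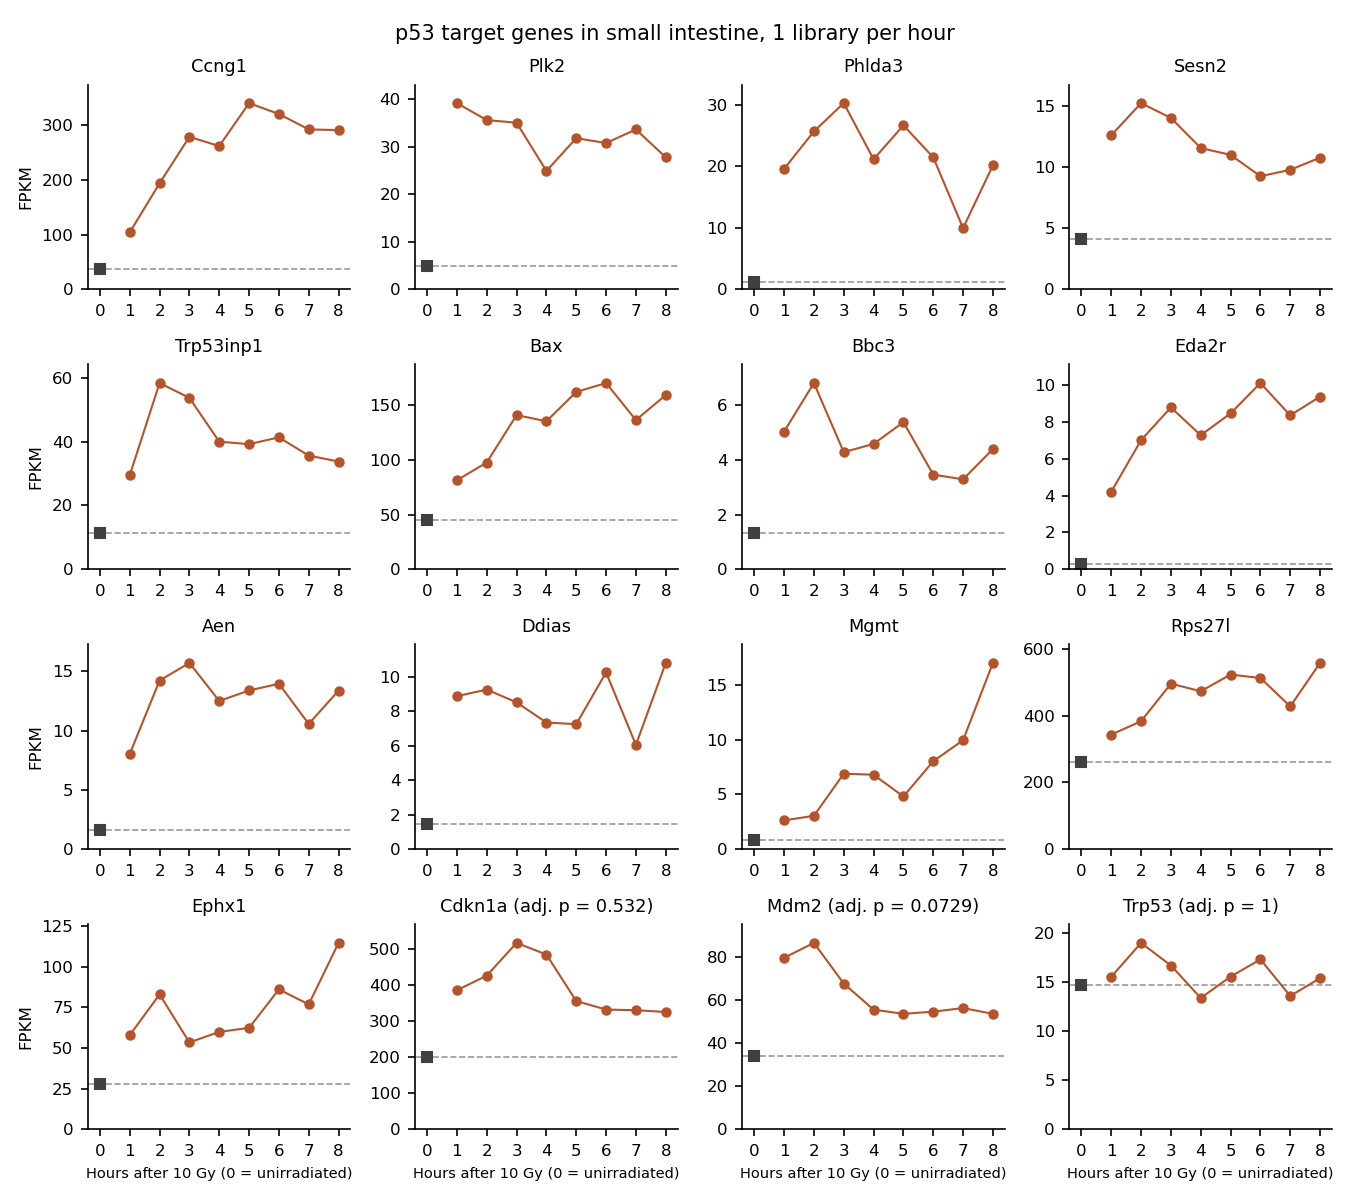
FPKM (vertical axis of each panel, starting at 0) by hour after irradiation (horizontal axis, h) for 16 p53 pathway genes in small intestine, 1 library per point; the black square and dashed line mark the single 0 h library. Phlda3, Ccng1, Plk2, Eda2r and Aen lay above 0 h at every hour, while Trp53 stayed at 13.4 to 19 FPKM, around its 0 h value of 14.7 FPKM.

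Among the p53 targets that act in apoptosis, 5 of 19 tested genes rose (Eda2r, Aen, Ddias, Bax and Bbc3), against 0.299% of all genes. The list median log2FC was 0.58. In 11 of the 19 all irradiated libraries were above 0 h, against 11% of all genes. Eda2r, a death-signalling receptor of the TNF receptor family, had 4.21, 7.02, 8.80, 7.28, 8.47, 10.1, 8.37 and 9.39 FPKM at 1 to 8 h, against 0.261 FPKM at 0 h. Its lowest irradiated value was at 1 h and its highest at 6 h. The mean of 7.96 ± 1.82 FPKM (SD, n = 8) was 30.5 times the 0 h value, with a log2FC of 2.80 ± 0.34 (adjusted p = 5.05e-05). Aen, a nuclease that enhances apoptosis, had 8.03, 14.2, 15.7, 12.5, 13.4, 14, 10.6 and 13.4 FPKM at 1 to 8 h, against 1.64 FPKM at 0 h (log2FC 2.36 ± 0.26, adjusted p = 8.15e-06). From 2 h on it varied little between hours. Ddias, which is known as a suppressor of apoptosis after DNA damage, had 8.88, 9.27, 8.52, 7.35, 7.26, 10.3, 6.05 and 10.8 FPKM at 1 to 8 h, against 1.44 FPKM at 0 h (log2FC 1.95 ± 0.31, adjusted p = 0.00172).

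Bax (chr7:45461695-45466903), which forms pores in the outer mitochondrial membrane, had 81.5, 97.7, 141, 135, 162, 170.5, 137 and 159 FPKM at 1 to 8 h, against 45.1 FPKM at 0 h. It was lowest at 1 and 2 h among the irradiated libraries and highest at 6 h (log2FC 1.53 ± 0.26, adjusted p = 0.00447). Bbc3, also called PUMA, a BH3-only protein that frees Bax to act, had 5.04, 6.81, 4.28, 4.58, 5.38, 3.46, 3.29 and 4.40 FPKM at 1 to 8 h, against 1.32 FPKM at 0 h. Its highest value was at 2 h, and all irradiated libraries were above 0 h (log2FC 1.26 ± 0.25, adjusted p = 0.0227). The adjusted p of Bbc3 missed the threshold in the fit of small intestine alone, and those of Bax, Ddias and Bbc3 did with 1 mean for 1 to 8 h, as did that of Bax after quantile normalization. Pmaip1, the BH3-only protein Noxa, did not pass, with 84.8, 214, 146, 284, 103, 114, 105 and 67.8 FPKM at 1 to 8 h, against 56.5 FPKM at 0 h (log2FC 1.14 ± 0.39, adjusted p = 0.413). Its irradiated values were all above 0 h but spread widely between neighbouring hours. Of 19 further Bcl2 family members and caspases outside the p53 lists, none was called, and their median log2FC was 0.10.

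Among the p53 targets that act in repair and metabolism, 3 of 19 tested genes rose (Mgmt, Ephx1 and Rps27l), against 0.299% of all genes. The list median log2FC was 0.11. Mgmt, which removes alkyl groups from guanine in DNA, had 2.63, 3.04, 6.89, 6.79, 4.81, 8.03, 9.94 and 17 FPKM at 1 to 8 h, against 0.840 FPKM at 0 h. Its value at 8 h was the highest and those at 1 and 2 h the lowest of the irradiated libraries (log2FC 2.01 ± 0.38, adjusted p = 0.0119). Ephx1, an epoxide hydrolase, had 57.9, 83, 53.4, 59.9, 62.4, 86.1, 76.8 and 115 FPKM at 1 to 8 h, against 28 FPKM at 0 h (log2FC 1.34 ± 0.27, adjusted p = 0.0215). Rps27l, a ribosomal protein paralog, had 343, 383, 496, 473, 523, 513, 428 and 558 FPKM at 1 to 8 h, against 262 FPKM at 0 h (log2FC 0.81 ± 0.15, adjusted p = 0.012). For Rps27l the smallest fold of the 13 was paired with a high level, and reads from its close copy Rps27 could be shared with it. All 3 missed the threshold with 1 mean for 1 to 8 h and in the fit of small intestine alone, and Ephx1 and Rps27l did after quantile normalization. Polk, a DNA polymerase that copies past lesions, had 5.65, 6.07, 8.01, 6.91, 5.91, 6.63, 5.50 and 4.55 FPKM at 1 to 8 h, against 2.39 FPKM at 0 h, and did not pass (log2FC 1.06 ± 0.31, adjusted p = 0.219).

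The gene of p53 itself, Trp53, was not called. It had 15.5, 19, 16.7, 13.4, 15.5, 17.3, 13.6 and 15.4 FPKM at 1 to 8 h, against 14.7 FPKM at 0 h, so the groups overlapped (log2FC 0.09 ± 0.18, adjusted p = 1). Cdkn1a, the cyclin-dependent kinase inhibitor p21, had 386, 426, 517, 485, 356, 332, 330.2 and 325 FPKM at 1 to 8 h, against 199 FPKM at 0 h. All 8 irradiated libraries were above 0 h, with the highest at 3 h, but the gene did not pass (log2FC 0.96 ± 0.36, adjusted p = 0.532). Mdm2, the ubiquitin ligase that degrades p53, had 79.8, 86.7, 67.8, 55.6, 53.7, 54.7, 56.4 and 53.7 FPKM at 1 to 8 h, against 34.3 FPKM at 0 h. It missed the threshold over 1 to 8 h (log2FC 0.85 ± 0.20, adjusted p = 0.0729) and rose at 1 to 2 h (log2FC 1.26 ± 0.23, adjusted p = 0.0107). Gdf15, a stress cytokine of the TGF-beta family, had 16.6, 10.6, 14.1, 7.43, 14.2, 7.76, 6.26 and 7.48 FPKM at 1 to 8 h, against 0.882 FPKM at 0 h, and missed it as well (log2FC 2.55 ± 0.61, adjusted p = 0.0812). Zfp365 and Dram1 were under the level filter, with irradiated means of 1.04 and 0.876 FPKM, against 0.0641 and 1.20 FPKM at 0 h.

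The p53 targets were followed hour by hour. The number above 0 h among the 57 was 40, 48, 45, 46, 48, 42, 46 and 44 at 1 to 8 h, where 43.8% to 51.6% of all genes were above it. Their median difference from 0 h on the log2(FPKM + 1) scale was 0.41, 0.61, 0.78, 0.68, 0.50, 0.49, 0.46 and 0.46. The median was highest at 3 h. In separate windows of hours, 10 targets passed at 1 to 2 h, 12 at 3 to 5 h and 12 at 6 to 8 h, all of them higher. Over all genes, 0.176% were higher and 0.0439% lower at 1 to 2 h. The shares were 0.237% and 0.0176% at 3 to 5 h, and 0.307% and 0.00878% at 6 to 8 h.

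**Figure D3:**
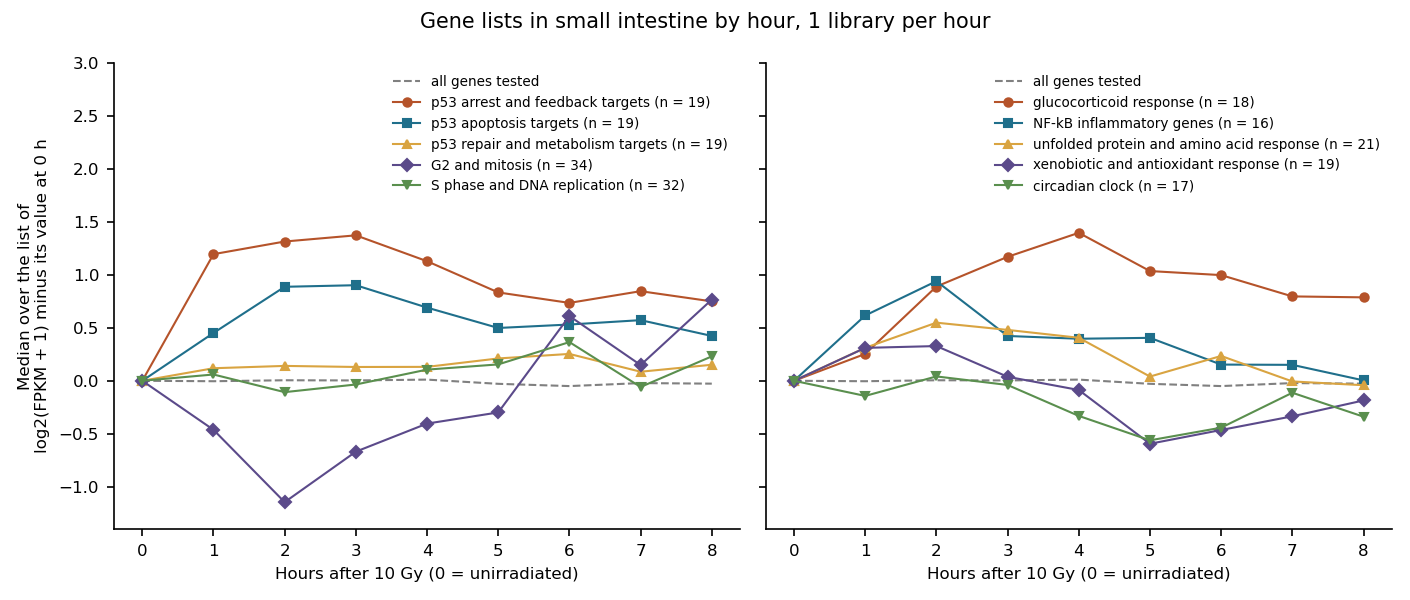
Median over each gene list of the difference in log2(FPKM + 1) from 0 h (vertical axis) at each hour (horizontal axis, h), 1 library per hour; the dashed line is the median of all 11387 genes. The p53 lists were above the dashed line throughout, while the G2 and mitosis list ran below it up to 5 h and above it at 6 to 8 h.

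Of the other 21 genes higher over 1 to 8 h, Ddit4 and Ddit4l encode the related mTORC1 inhibitors REDD1 and REDD2. Ddit4 had 20.3, 35.1, 21.7, 32.7, 22.6, 25.6, 24.8 and 16.4 FPKM at 1 to 8 h, against 7.18 FPKM at 0 h (log2FC 1.63 ± 0.33, adjusted p = 0.0242). Ddit4l averaged 5.47 ± 1.79 FPKM in irradiated libraries (SD, n = 8), against 0.515 FPKM at 0 h (log2FC 2.05 ± 0.38, adjusted p = 0.0113). With Sesn2, these make 3 restrainers of mTORC1 among the 34, a grouping made after the values were seen. Thyn1, thymocyte nuclear protein 1, averaged 45.8 ± 13.1 FPKM in irradiated libraries, against 12.3 FPKM at 0 h (log2FC 1.76 ± 0.26, adjusted p = 0.000797). Gm11974, an unnamed locus, averaged 12.2 ± 5.64 FPKM in irradiated libraries, against 1.99 FPKM at 0 h (log2FC 2.02 ± 0.40, adjusted p = 0.0206). Gtf3c4, a subunit of the RNA polymerase III factor TFIIIC, had a log2FC of 1.27 ± 0.19 (adjusted p = 0.000612), and Tmc7, a transmembrane channel-like protein, one of 1.27 ± 0.22 (adjusted p = 0.00447). Kifc1, a kinesin of the spindle poles, rose by 1.19, while Pigw, which builds GPI anchors, and Zfp692, a zinc finger protein, rose by 1.54 and 1.40. Another 7 (Cby1, Snhg3, Rsl24d1, F8a, Nudcd2, Ift74 and Gskip) had log2FC of 0.64 to 1.17. Pigw, Cby1, Snhg3, Rsl24d1, F8a and Nudcd2 missed the threshold when 1 of several irradiated libraries was left out. Ddit4, Ddit4l, Gm11974, Gtf3c4 and Ift74 missed it in the fit of small intestine alone, Thyn1 and Zfp692 with 1 mean for 1 to 8 h, and Tmc7, Kifc1 and Gskip in both. Ddit4 and Gskip missed it after quantile normalization as well.

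For 5 of the 34 higher genes the 0 h library was listed near 0, so their fold changes depend on that listing. Clec4n, the fungal receptor Dectin-2 of macrophages, had 12.1, 7.16, 17.5, 14.2, 11, 17.9, 17.7 and 16.8 FPKM at 1 to 8 h, against 0.000558 FPKM at 0 h. It was the only one of 16 macrophage and dendritic cell markers called. The summed level of all 19 such markers in the deposited table was 812 to 1066 FPKM in irradiated libraries, against 939.7 FPKM at 0 h. Cpsf1, a subunit of the machinery that cuts and polyadenylates mRNA and a gene used by every cell, had 9.32, 9.90, 8.60, 8.94, 13.8, 11.6, 9.76 and 9.95 FPKM at 1 to 8 h, against 0.0126 FPKM at 0 h. Mro, which is also called maestro, had 8.97, 13.2, 4.87, 8.30, 10.4, 12.1, 11 and 8.44 FPKM at 1 to 8 h, against 0.00124 FPKM at 0 h. For all 3 genes every irradiated library lay far above 0 h. Tnfrsf18, the costimulatory T cell receptor GITR, was near 0 at 0 h and again at 1 h, and it missed the threshold when the 3, 4, 6 or 8 h library was left out. Fancl, the ubiquitin ligase of the Fanconi anemia pathway, was listed at 0 at 0 h and had 1.40 to 3.70 FPKM in irradiated libraries.

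Rfx2 and Rab19 were the 2 genes that fell. Rfx2, a transcription factor of ciliary genes, had 1.19, 0.523, 0.394, 0.596, 0.551, 0.460, 0.498 and 1.27 FPKM at 1 to 8 h, against 3.88 FPKM at 0 h. All irradiated libraries were below 0 h, and the highest of them were at 1 and 8 h (log2FC -1.56 ± 0.32, adjusted p = 0.0284). Rab19, a small GTPase of vesicle traffic, had 14.9, 17, 19.8, 22.7, 19.9, 24.9, 21.1 and 24.9 FPKM at 1 to 8 h, against 39.4 FPKM at 0 h (log2FC -0.92 ± 0.20, adjusted p = 0.0426). Its lowest value was at 1 h. Rfx2 missed the threshold when the 3 h library was left out, with a pseudocount of 0.1 and in the fit of small intestine alone. Rab19 missed it when the 1, 2, 3 or 5 h library was left out and under 6 other alternatives. With a pseudocount of 0.1, 57 genes were higher and 0 lower.

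Separate windows added genes that were not called over 1 to 8 h. At 1 to 2 h Icam1, an adhesion molecule for leukocytes, rose by 2.03 (adjusted p = 0.0115), and Nfkbia, the inhibitor of NF-kB, rose by 1.44 (adjusted p = 0.018). Lat, an adaptor of the T cell receptor, fell to 1.14 and 0.504 FPKM at 1 and 2 h, against 3.41 FPKM at 0 h. Pot1a, which protects telomere ends, fell to 1.93 and 1.64 FPKM at 1 and 2 h, against 5.46 FPKM at 0 h. At 6 to 8 h Tert, the catalytic subunit of telomerase, was higher, with 2.02, 2, 4.15, 1.95, 4.61, 4.03, 4.67 and 3.54 FPKM at 1 to 8 h, against 0.806 FPKM at 0 h (log2FC 1.49 ± 0.32, adjusted p = 0.0405). Saa3, an acute phase protein, had 1.23, 8.13, 12, 26.2, 7.07, 33.6, 12.1 and 14.5 FPKM at 1 to 8 h, against 0.787 FPKM at 0 h, and was called at 6 to 8 h (log2FC 3.42 ± 0.74, adjusted p = 0.0405). Psrc1, a p53 target that binds spindle microtubules, was called at 6 to 8 h as well (log2FC 2.58 ± 0.53, adjusted p = 0.0266). The only gene that was lower at 6 to 8 h, Cutc of copper homeostasis, was listed near 0 at 6, 7 and 8 h, on which its call rests (log2FC -3.53 ± 0.55, adjusted p = 0.00142).

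Genes of G2 and mitosis were below 0 h early and above it late. None of the 34 tested was called against 0 h, and their median log2FC over 1 to 8 h was -0.23. The number below 0 h among the 34 was 33, 33, 33, 29, 29, 0, 12 and 0 at 1 to 8 h, while 48.4% to 56.2% of all genes were below it. Their summed level was 175, 87.8, 129, 177, 183, 398, 276 and 438 FPKM at 1 to 8 h, against 244 FPKM at 0 h. The lowest sum was at 2 h and the highest at 8 h. Ccnb1, cyclin B1, which drives entry into mitosis, had 0.961, 0.889, 1.58, 0.869, 1.81, 6.15, 5.38 and 8.09 FPKM at 1 to 8 h, against 3.07 FPKM at 0 h. Up to 5 h it was below 0 h, and from 6 h on it was above. Tpx2, a spindle assembly factor, had 2.05, 0.746, 1.92, 2.91, 3.76, 5.30, 6.21 and 9.77 FPKM at 1 to 8 h, against 4.33 FPKM at 0 h. Nuf2, a kinetochore protein, had 1.11, 0.610, 1.52, 2.26, 2.31, 5.68, 4.32 and 7.49 FPKM at 1 to 8 h, against 2.59 FPKM at 0 h. Both were lowest at 2 h, and all 3 genes were highest at 8 h. The largest differences over all 8 h were those of Ccnb2 (-0.93), Cenpa (-0.82) and Kif2c (-0.47), none of which passed.

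A straight line over the 8 irradiated libraries, without 0 h, tested such drifts. It called 24 genes with a rising slope (0.211%) and 41 with a falling one (0.36%). No gene was called when the 2 h or the 8 h library was left out, and 5 to 71 were when another was. Without the 2 h library 1531 genes (13.4%) still passed at an unadjusted p under 0.05, against 1872 (16.4%) with all 8. Of the 34 G2 and mitosis genes 6 had a rising slope, among them Ccnb1 with 0.35 ± 0.06 log2 units per hour (adjusted p = 0.0413) and Tpx2 with 0.32 ± 0.05 (adjusted p = 0.0384). The others were Nuf2, Prc1, Ndc80 and Cdc25b. None of the 32 S phase and replication genes had a called slope, and their median log2FC over 1 to 8 h was 0.15. Of the p53 targets only Mgmt had a called slope, a rising one of 0.28 ± 0.05 per hour. Exoc4, a subunit of the exocyst that tethers vesicles, had the steepest called rise, with 6.37, 6.97, 9.80, 15.1, 30.8, 39.1, 34.8 and 29.5 FPKM at 1 to 8 h, against 8.22 FPKM at 0 h. Ckap2l, a mitotic spindle protein outside the list, rose by 0.29 ± 0.03 per hour (adjusted p = 0.0141), and Prc1, which bundles spindle microtubules, by 0.30 ± 0.05 (adjusted p = 0.0481).

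Several inflammatory genes driven by NF-kB were highest in the first hours. Of 16 tested, none passed over 1 to 8 h, 2 rose at 1 to 2 h (Icam1 and Nfkbia), and 5 had falling slopes (Ccl2, Icam1, Nfkbia, Tnfaip3 and Csf1). Their median difference from 0 h was 0.62, 0.94, 0.42, 0.40, 0.41, 0.15, 0.15 and 0.00 at 1 to 8 h. Ccl2, a chemokine for monocytes, had 20.1, 9.32, 7.54, 2.60, 1.05, 2.73, 1.02 and 1.49 FPKM at 1 to 8 h, against 0.429 FPKM at 0 h. Icam1 had 15.1, 10.6, 6.11, 4.83, 3.63, 4.35, 3.15 and 3.59 FPKM at 1 to 8 h, against 2.33 FPKM at 0 h. Both were far above 0 h at 1 h and came down over the following hours (slope -0.45 ± 0.08 per hour for Ccl2, adjusted p = 0.0413). Cxcl10, a chemokine of the interferon response, had the steepest called fall (-0.49 ± 0.08 per hour), with 46.5, 29.3, 8.12, 5.84, 5.43, 3.15, 3.76 and 3.34 FPKM at 1 to 8 h, against 9.53 FPKM at 0 h. Of 31 tested interferon genes none passed over 1 to 8 h, their median log2FC was -0.16, and Cxcl10 and Rsad2 had falling slopes. The largest differences from 0 h in that list, those of Ciita (-0.84), Irf1 (-0.64) and Bst2 (0.60), did not pass. Ccl24, a chemokine for eosinophils, also had a falling slope, of -0.27 ± 0.05 per hour (adjusted p = 0.0481). Tnf, Il6, Cxcl1, Cxcl2, Cxcl5 and Tnip3 were below the level filter.

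**Figure D4:**
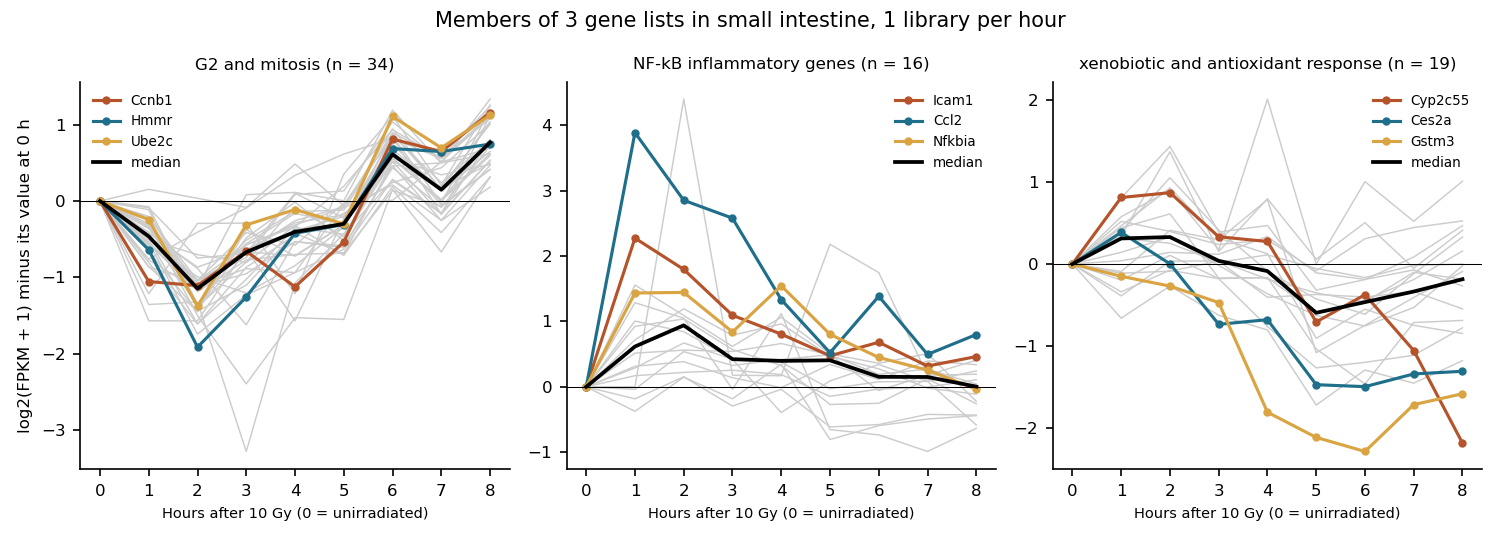
Difference in log2(FPKM + 1) from 0 h (vertical axis) by hour (horizontal axis, h) for each tested gene of 3 lists, with 3 named genes coloured in each panel and the list median in black, 1 library per hour. The G2 and mitosis genes were mostly below the 0 h level up to 5 h and none was below at 6 and 8 h, Ccl2 and Icam1 were highest at 1 h, and Cyp2c55 was lowest at 8 h.

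Some genes that detoxify foreign compounds had falling levels over the same hours. Of 19 tested xenobiotic and antioxidant genes none was called over 1 to 8 h, and 3 had falling slopes. Cyp2c55, a cytochrome P450, had 218, 227, 156, 149.9, 75.5, 95.3, 59.1 and 26.5 FPKM at 1 to 8 h, against 124 FPKM at 0 h. It was above 0 h at first and below it from 5 h on (slope -0.40 ± 0.05 per hour, adjusted p = 0.0183). Ces2a, a carboxylesterase, had 1142, 876, 525, 546, 315, 310.1, 345 and 353 FPKM at 1 to 8 h, against 875 FPKM at 0 h (slope -0.26 ± 0.04 per hour, adjusted p = 0.0413). Gstm1, a glutathione transferase, was the third of them. Cyp2c66, a cytochrome P450 outside the list, had a falling slope of -0.36 ± 0.04 per hour (adjusted p = 0.0141), with 221, 278, 149, 141, 68.8, 71.1, 64.5 and 45.6 FPKM at 1 to 8 h, against 201 FPKM at 0 h. The locus 1700016C15Rik had a slope of -0.31 ± 0.05 (adjusted p = 0.0413). Gstm3 of the same family had 356, 328, 285, 112, 90.7, 80.5, 120.0 and 132 FPKM at 1 to 8 h, against 395 FPKM at 0 h, and did not pass (log2FC -1.30 ± 0.62, adjusted p = 0.755). Nor did Cyp3a11, a major drug-oxidising P450 (adjusted p = 1). In the single 5 h library 18 of the 19 genes were below 0 h, where 54.1% of all genes were. Of the 21 genes of the unfolded protein and amino acid response, Sesn2 rose over 1 to 8 h, all 21 were above 0 h at 2 h and 9 were at 8 h, where 50.6% and 46.6% of all genes were. Creld2 and Manf, secretory chaperones, had log2FC of 0.85 and 0.44 and did not pass. Hspa5, the chaperone BiP of the endoplasmic reticulum, had 538, 656, 500.1, 434, 341, 353, 326 and 303 FPKM at 1 to 8 h, against 312 FPKM at 0 h (slope -0.15 ± 0.02 per hour, adjusted p = 0.0413). Manf and Hyou1 of the same response also had falling slopes.

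Of 18 tested glucocorticoid-responsive genes, 1 passed over 1 to 8 h (Ddit4). All 18 had a log2FC above 0, with a median of 0.99. Among all genes 5271 of 11387 had a log2FC above 0. In 9 of the 18 all irradiated libraries were above 0 h, which held for 11% of all genes. Fkbp5, a chaperone of the glucocorticoid receptor, had 23.5, 92.4, 99.4, 146, 51.9, 65.4, 109 and 103 FPKM at 1 to 8 h, against 22.8 FPKM at 0 h (log2FC 1.71 ± 0.52, adjusted p = 0.277). It was at its 0 h level at 1 h and far above it by 2 h. Lcn2, lipocalin 2, had 2.49, 9.06, 6.06, 15.3, 12, 11.2, 4.71 and 18.4 FPKM at 1 to 8 h, against 0.398 FPKM at 0 h (log2FC 2.78 ± 0.64, adjusted p = 0.063). Zbtb16 of this list was called at 6 to 8 h (log2FC 1.93 ± 0.43, adjusted p = 0.0484). Of 17 circadian clock genes none was called. All irradiated libraries were below 0 h for 6 of the 17, among them Per3, Hlf, Per2, Cry1 and Nfil3, against 13.1% of all genes. They were all above it for Per1, against 11% of all genes. Nfil3 and Cry1 had log2FC of -0.81 and -0.80. The part of the time of day in these values was not tested.

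Markers of the epithelial cell types did not pass over 1 to 8 h. None of 27 enterocyte, 12 Paneth cell and 13 goblet cell genes was called, with median log2FC of -0.02, 0.06 and 0.09. Of 16 stem cell genes none was called over 1 to 8 h, and Tert was at 6 to 8 h. Lgr5, the receptor that marks crypt stem cells, had 1.26, 0.536, 0.742, 0.931, 1.18, 1.83, 1.29 and 1.53 FPKM at 1 to 8 h, against 2.53 FPKM at 0 h. All irradiated libraries were below 0 h, the lowest at 2 h (log2FC -0.73 ± 0.21, adjusted p = 0.215). After quantile normalization Lgr5 passed, with a log2FC of -1.10. Cd44, a stem and progenitor cell surface glycoprotein, had a log2FC of 0.76 ± 0.47 and did not pass. Of 13 antimicrobial genes none was called over 1 to 8 h. Reg3b, a bactericidal lectin, had 5169.8, 11957, 2107, 20168, 6183, 12689.5, 3812 and 28995 FPKM at 1 to 8 h, against 7668 FPKM at 0 h, so neighbouring hours differed several-fold in both directions.

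Other groups tested in the same way held no called gene over 1 to 8 h. These were 23 genes of DNA damage signalling and repair (median log2FC -0.03), 12 Wnt targets (-0.01), 10 Notch pathway genes (-0.10) and 17 genes of YAP and epithelial regeneration (0.28). The 28 genes of fat absorption and lipid metabolism had a median of -0.01, the 20 of cholesterol synthesis 0.16, the 33 ribosomal protein genes 0.13 and the 27 of oxidative phosphorylation 0.12. Among heat shock chaperones, 15 in all, none was called, and the largest log2FC was that of Hspa1b (1.06 ± 0.55).

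Immune cell markers varied between libraries as well. Of 20 T cell and intraepithelial lymphocyte genes none was called over 1 to 8 h, and Lat fell at 1 to 2 h. Their median log2FC was -0.28, and 4 of the 20 had a log2FC above 0. All 8 irradiated libraries were below 0 h for 6 of the 20, against 13.1% of all genes. They were all above it for 1, against 11% of all genes. The summed level of the 22 listed genes in the deposited table was 395 to 919 FPKM in irradiated libraries, against 811 FPKM at 0 h. Lck, a kinase of the T cell receptor, had 3.25, 4.88, 7.15, 9.39, 2.83, 5.93, 4.01 and 4.17 FPKM at 1 to 8 h, against 11.2 FPKM at 0 h (log2FC -1.05 ± 0.42, adjusted p = 0.587). The B cell markers summed to 259.9 to 1268 FPKM in irradiated libraries, against 857 FPKM at 0 h. The spans of both sums enclosed the 0 h value. Smooth muscle markers summed to 559 to 1376 FPKM in irradiated libraries, with the lowest at 7 h, against 909 FPKM at 0 h. Pancreatic acinar markers summed to 167 to 341 FPKM in irradiated libraries, against 262 FPKM at 0 h. Most of that sum was Clps, colipase, with 124 to 275 FPKM in irradiated libraries, against 206 FPKM at 0 h, and 10 of the 15 markers in the table stayed below 1 FPKM in every library. The part of these cell types in the gene results was not tested.

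The p53 response of small intestine was also set against that of spleen, a lymphoid organ, over the same hours. The difference of the 2 log2FC was tested for 10375 genes, of which 13 (0.125%) had a higher log2FC in small intestine and 29 (0.28%) a lower one. Of the p53 targets 5 had a lower log2FC in small intestine (Cdkn1a, Bbc3, Tnfrsf10b, Fas and Apaf1) and none a higher one. For Cdkn1a small intestine averaged 395 ± 74.3 FPKM in irradiated libraries, against 199 FPKM at 0 h, and spleen averaged 241 ± 56.1 FPKM in irradiated libraries, against 4.45 FPKM at 0 h (SD, n = 8). Its irradiated level was thus higher in small intestine, and so was its 0 h level. The difference in log2FC was -4.47 ± 0.50 (adjusted p = 4.81e-05). The 0 h level of Cdkn1a was 169 FPKM in large intestine and 9.88 FPKM in thymus.

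Bbc3 averaged 4.66 ± 1.12 FPKM in irradiated small intestine, against 1.32 FPKM at 0 h, and 44.3 ± 13.8 FPKM in irradiated spleen, against 2.42 FPKM at 0 h (SD, n = 8). Unlike Cdkn1a, Bbc3 had a higher irradiated level in spleen (difference in log2FC -2.40 ± 0.36, adjusted p = 0.00167). Fas, a death receptor, averaged 27.4 ± 6.13 FPKM in irradiated small intestine, against 25 FPKM at 0 h, and 44.1 ± 10.4 FPKM in irradiated spleen, against 9.60 FPKM at 0 h (difference -1.95 ± 0.42, adjusted p = 0.0307). For Tnfrsf10b, the mouse TRAIL receptor, the difference was -2.55 ± 0.43 (adjusted p = 0.00512), and for Apaf1, the scaffold of the apoptosome, -1.87 ± 0.42 (adjusted p = 0.0475). The differences did not pass for Phlda3 (-0.65 ± 0.47), Ccng1 (-0.43 ± 0.32), Bax (-0.56 ± 0.37) or Mdm2 (-1.15 ± 0.28). The spleen library at 6 h was taken to carry pancreatic RNA, of which no values are given here. Without it and the 1 and 2 h libraries of large intestine, 79 genes differed, against 42 with all libraries.

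**Figure D5:**
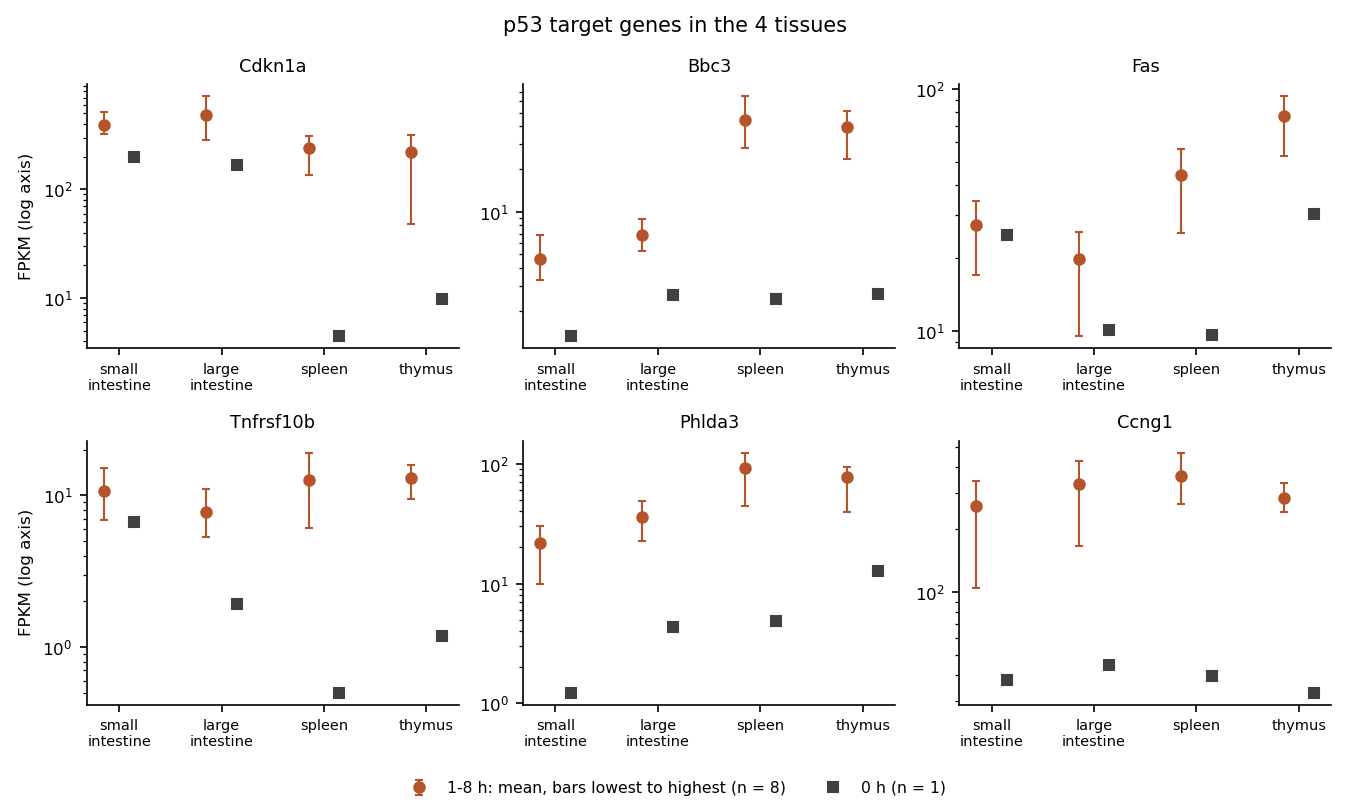
FPKM (log axis) of 6 p53 targets in 4 tissues. Points with bars are the mean and the lowest to highest of the 8 irradiated libraries at 1 to 8 h, and squares the single 0 h library, so that Cdkn1a at 0 h stood at 199 FPKM in small intestine and 4.45 FPKM in spleen; the large intestine mean includes its 1 and 2 h libraries.

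Against large intestine, the difference was tested at 3 to 8 h (6 libraries each). Earlier results of these data named the large intestine libraries at 1 and 2 h as carrying altered epithelial transcripts, whose values are not given here. Of 10982 genes, 5 (0.0455%) had a higher log2FC in small intestine and 11 (0.1%) a lower one. Ccng2, cyclin G2, was the only p53-list gene among these 16. Without the 1 and 2 h libraries of large intestine and the 6 h library of spleen, 59 genes passed in place of 16. Ccng2 averaged 154 ± 15.2 FPKM in irradiated small intestine, against 179.9 FPKM at 0 h, and 124 ± 16.4 FPKM in irradiated large intestine, against 52.1 FPKM at 0 h (SD, n = 6). The difference in log2FC was -1.45 ± 0.29 (adjusted p = 0.0332). Cldn2, a claudin that forms pores for cations in leaky epithelia, averaged 37.9 ± 11.5 FPKM in irradiated small intestine, against 13.1 FPKM at 0 h, and 34.7 ± 20.6 FPKM in irradiated large intestine, against 109.9 FPKM at 0 h (difference 3.21 ± 0.65). The differences did not pass for Cdkn1a (-0.70 ± 0.51), Phlda3 (0.37 ± 0.48), Ccng1 (-0.11 ± 0.32), Bax (0.28 ± 0.38) or Bbc3 (0.05 ± 0.37).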

How the data were processed

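The deposited values are FPKM for 13611 genes named by symbol. Per the submitters' processing notes, the authors used TopHat2 2.1.0, Cufflinks 2.1.1 and the mouse build mm10. Per the labels' protocols, tissue was kept in RNAlater, RNA was taken up in Trizol, and libraries of polyadenylated RNA did not mark strand, so overlapping genes on opposite strands can share reads. FPKM gives no read totals, so the depth of each library is unknown and no counting error is given.

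Values were taken as log2(FPKM + 1) and fitted with limma 3.58.1 in R 4.3.3 (trended prior, Benjamini-Hochberg adjustment, threshold 0.05). All 40 tissue libraries entered, with 1 mean per tissue and window of hours (0, 1 to 2, 3 to 5, 6 to 8 and 24 h), which left 20 residual degrees of freedom. Slopes were fitted to the 8 irradiated libraries alone (6 residual degrees of freedom). The fits were tested on simulated data. Positions and promoters came from RefSeq (GRCm38.p6), which matched 11314 of the 11387 tested genes by symbol.

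The gene lists and the p53 targets were chosen with earlier results of these data known. Genes were named by rule: the 10 highest and 10 lowest called genes whose irradiated libraries all lay on 1 side of 0 h; each list's called genes and its 3 largest changes; the 6 steepest called slopes each way; called p53 targets and the 5 largest differences each way between tissues; and Trp53, Cdkn1a, Mdm2, Ccng1, Bbc3, Bax, Phlda3 and Lgr5. Others named here were chosen after their values were seen. Alternatives were another pseudocount, filters, scalings, models and libraries left out. The main fit did not pair libraries of different tissues by hour. Of 42 distinct same-hour pairs, 5 had a correlation of deviations over 0.1 (1 and 2 h give the same values). The highest was 0.299, between spleen and thymus at 3 h. Different hours were not compared in this way, so these values cannot show whether tissues of equal hour shared an animal.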

Additional observations from a re-analysis of the deposited data

Results flagged for a closer look

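Phlda3, Eda2r and Tnfrsf18, which passed the test over 1 to 8 h, had 1 irradiated library far from the other 7 by Dixon's criterion on the log2(FPKM + 1) scale, which chance meets in about 1 in 20 groups. Phlda3 had 9.95 FPKM at 7 h, where the next lowest library had 19.6 FPKM. Eda2r had 4.21 FPKM at 1 h, where the next lowest had 7.02 FPKM. Tnfrsf18 had 2.69e-05 FPKM at 1 h, where the next lowest had 3.13 FPKM. On FPKM itself the gap over the range was 0.474 for Phlda3, 0.475 for Eda2r and 0.26 for Tnfrsf18, all below the critical value.

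Differences in response between tissues passed limma's test of the difference in log2FC (small intestine minus the other tissue, adjusted over all genes). Against spleen, p53 targets with a lower log2FC in small intestine were Cdkn1a (-4.47), Tnfrsf10b (-2.55), Bbc3 (-2.40), Fas (-1.95) and Apaf1 (-1.87). Of other genes, the differences were lowest for Tgfb1i1 (-3.90), Fam92a (-2.84), Prrg4 (-2.65) and Slc19a2 (-2.65). They were highest for Cpsf1 (3.23), Fancl (2.50), Adcy7 (2.45), Cpm (2.12) and Ralgps2 (1.71). In small intestine Cpsf1, Fancl and Adcy7 were under 0.05 FPKM at 0 h, and Tgfb1i1 was at 8 h. In spleen Fam92a was under 0.05 FPKM at 0 h.

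Against large intestine, Ccng2 was the p53-list gene that differed (-1.45). The highest differences were those of Clec4n (4.63), Cpsf1 (3.95), Cldn2 (3.21), 2410006H16Rik (2.03) and Gtf3c4 (1.48). The lowest were those of 2810459M11Rik (-3.70), Kbtbd4 (-3.10), Zbtb24 (-2.26), Dnajb6 (-2.09) and Ptk2b (-1.92). In small intestine the 0 h values of Clec4n and Cpsf1 were near 0, and in large intestine those of 2810459M11Rik and Kbtbd4.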

How the results depend on the processing

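Of the 36 genes called over 1 to 8 h, 8 passed under every alternative that tested them (Clec4n, Cpsf1, Mro, Phlda3, Eda2r, Ccng1, Plk2 and Aen). None of the 36 changed sign. Clec4n, Cpsf1 and Mro were listed near 0 in the 0 h library, which every alternative used again. The alternative without genes listed near 0 left them out, so their passing does not bear on that listing. The count of 36 became 57 with a pseudocount of 0.1, 20 with the small intestine fitted alone and 15 with 1 mean for 1 to 8 h, and it was 30 to 42 when each irradiated library was left out in turn. With a pseudocount of 0.1, 47 genes passed at 1 to 2 h in place of 25, 60 at 3 to 5 h in place of 29, 60 at 6 to 8 h in place of 36, and 30 for the difference from large intestine in place of 16. After quantile normalization 50 genes passed at 3 to 5 h, 26 for the difference from large intestine, 88 for that from spleen in place of 42, and 23 for the slope in place of 65. Without the 1 and 2 h large intestine and 6 h spleen libraries, 48 passed at 3 to 5 h, 59 for the difference from large intestine and 79 for that from spleen. Slope calls numbered 0 to 71 when each library was left out. With the hour as a replicate block over the tissues, 37 genes passed over 1 to 8 h, 26 at 1 to 2 h, 27 at 3 to 5 h, 36 at 6 to 8 h, 22 for the difference from large intestine and 61 for that from spleen. The causes were not tested. Every comparison with 0 h rests on 1 untreated library, depth is unknown, and low genes have their folds reduced by the pseudocount.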

Other observations

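Some further values of single libraries stood out. Rmrp, the RNA of a nuclease that processes ribosomal RNA, had 950.3 FPKM at 7 h, against 0 at 0 h, in the library that was also high in Rn45s and Snord22. The adipocyte genes Adipoq, Retn and Cfd were listed at 0 at 7 h, and had 18.1, 17 and 46.3 FPKM at 0 h. Cutc had 7.34, 7.89, 6.32, 8.03 and 11.1 FPKM at 1 to 5 h, against 10.6 FPKM at 0 h, and was listed near 0 at 24 h as it was at 6, 7 and 8 h.

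Erythroid markers summed to 26.1 FPKM at 1 h, against 5.88 FPKM at 0 h, with 0.598 to 26.1 FPKM over all irradiated libraries. The 24 h library, which had no neighbour in time, had 18.1 FPKM of Phlda3, 167 FPKM of Ccng1 and 4.84 FPKM of Eda2r, against 1.23, 37.6 and 0.261 FPKM at 0 h.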
